A study of Homo sapiens with 6 samples.

Results

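Acid sphingomyelinase and 7 further genes of lysosomal sphingolipid breakdown were followed in H460 cells with and without fluoxetine. The 8 genes were SMPD1, ASAH1, GALC, GLA, ARSA, HEXA, GM2A and PSAP, and they were taken by symbol from the 31762 genes of the deposited count table. H460 is a human lung line established from a large cell carcinoma, labelled wild type and grown in RPMI-1640 medium with fetal bovine serum. Total RNA of 3 control libraries and of 3 libraries of cells exposed to 20 µM fluoxetine for 24 h was sequenced, and the samples are labelled only as control or fluoxetine, with no vehicle named. The study asked how the transcriptome of these cancer cells changed with the drug. Nothing states that the 3 libraries of a group came from separate cultures, so the p-values measure the spread between these libraries, which may be technical.

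Membrane sphingolipids that reach the lysosome are taken apart from the outer end by soluble acid hydrolases, and several of these enzymes need a small activator protein that lifts the lipid out of the membrane. Sphingomyelin is cut to ceramide by acid sphingomyelinase, and ceramide is cut to sphingosine by acid ceramidase. Gangliosides, globosides and sulfatides are trimmed by hexosaminidase, galactosidases and arylsulfatase A, and inherited loss of these enzymes causes lysosomal storage diseases. Fluoxetine is a cationic amphiphilic antidepressant that collects in lysosomes and is known as a functional inhibitor of acid sphingomyelinase protein. The counts measure RNA and not enzyme activity.

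The libraries held 16157507 to 27823667 counts, and each fluoxetine library was shallower than each control library. A level is given in CPM (read counts scaled to the library size after TMM normalization, which corrects for composition), and 3 counts were worth 0.108 to 0.186 CPM. The mitochondrial share of the counts was 8.13% to 8.89% across all 6 libraries. The H460 marker TBXT averaged 1102 CPM in control and 1262 CPM in fluoxetine-treated cells. Of the epithelial markers, KRT8 and KRT18 were abundant, whereas EPCAM and CDH1 had at most 11 and 1 counts in any library. KRT18 fell by 0.72 on the log2 scale (adjusted p = 0.00162 by edgeR's quasi-likelihood test), and its part in the results was not tested. The leukocyte and endothelial markers found in the table had at most 8 counts in any library. Of the fibroblast markers, COL3A1 fell by 0.53 on the log2 scale, from 18.3 to 12.7 CPM (adjusted p = 0.0145 in edgeR), COL1A1 averaged 4.62 and 4.07 CPM, and DCN had at most 8 counts. In bulk RNA, fewer cells of a type and less RNA per cell cannot be told apart.

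After fluoxetine treatment, 5 of the 8 genes were upregulated at an adjusted p under 0.05, namely ASAH1, GM2A, HEXA, PSAP and SMPD1, and each of these also passed when every library was thinned to 16157507 counts. Among all 15646 tested genes, 7.76% were called higher, 5.32% lower and 13.1% in either direction. None of the 8 was lower, also at an unadjusted p under 0.05 in edgeR, DESeq2 and limma-voom, and 6 were higher at that unadjusted p in each of the 3 tools. ASAH1 alone rose by at least 2-fold, which 1.25% of the tested genes did with an adjusted p under 0.05 (1.39% in either direction). All 8 genes passed the filter on low counts and had a fitted log2 fold change above 0, with a median of 0.41 against 0.03 over all tested genes. In 7 of them each fluoxetine library lay above each control library, as in 17.5% of the tested genes (31.9% in either direction), and ARSA was the exception.

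**Figure D1:**
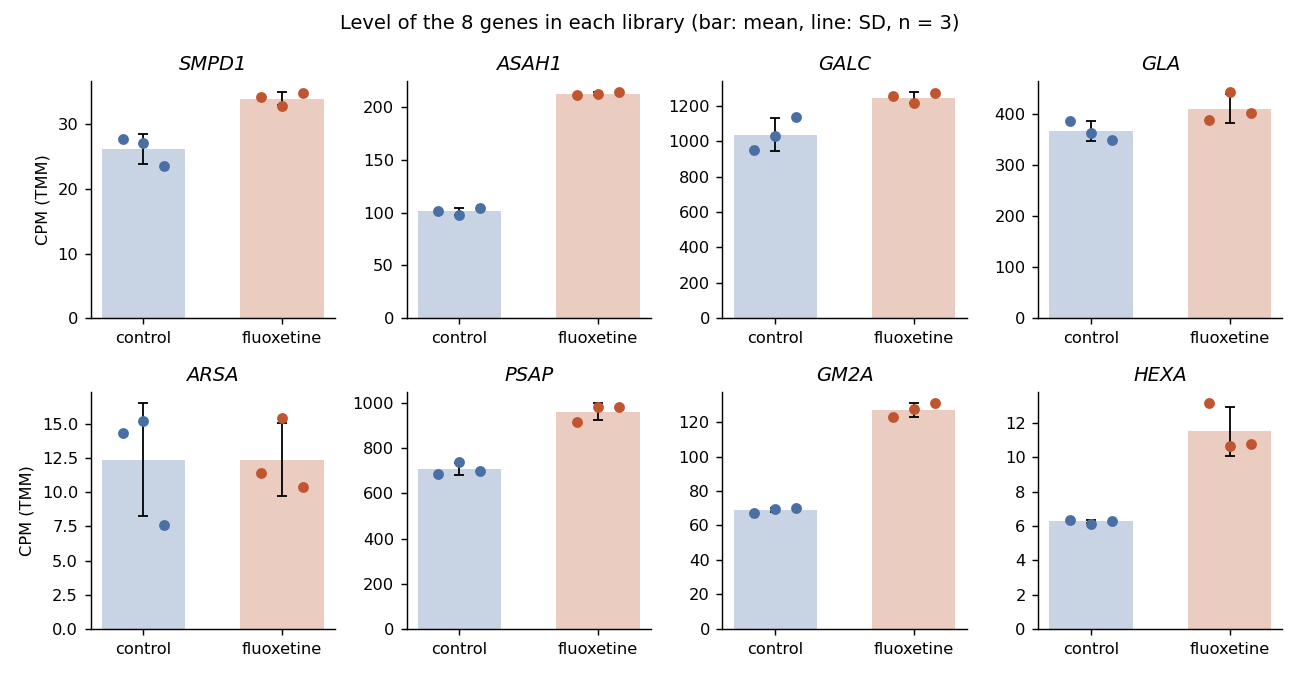
Level of each of the 8 genes in each library, in CPM, with libraries as points, group means as bars and the SD as lines (n = 3 per group). The groups are far apart for ASAH1 and GM2A, barely apart for GLA and intermingled for ARSA.

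**Figure D2:**
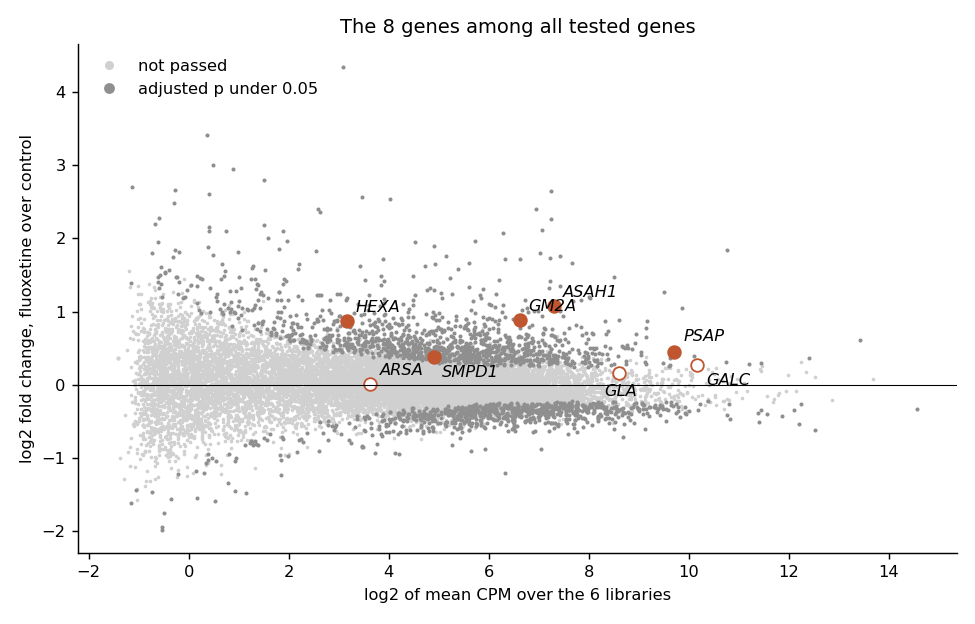
Log2 fold change of fluoxetine over control against the log2 of the mean CPM for the 15646 tested genes, with dark grey points at an adjusted p under 0.05 and the 8 genes named (filled where they passed). ASAH1, GM2A and HEXA lie above 97.6% or more of all tested genes in fold change, and ARSA lies near the middle.

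SMPD1 encodes acid sphingomyelinase and occupies chromosome 11, positions 6390431 to 6394998, on the plus strand of GRCh38. It had 27.8, 27.2 and 23.6 CPM in the control libraries and 34.2, 32.8 and 34.8 CPM in the fluoxetine libraries, from 522 to 654 counts each. Each fluoxetine library lay above each control library, and the third control library was the lowest. Means were 26.2 ± 2.28 CPM (SD, n = 3) in control and 33.9 ± 1.02 CPM with fluoxetine. The log2 fold change was 0.38 with an SE of 0.10 (95% interval 0.16 to 0.59), a rise of 1.30-fold, and the adjusted p was 0.0311 in edgeR. SMPD1 passed the threshold in each of the 8 alternatives that kept all libraries. It passed in 0 of the 6 fits that left out a library, where the log2 fold change was 0.27 to 0.39 and the adjusted p 0.0553 to 0.165. The lowest of these fold changes came without the third control library.

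ASAH1 encodes acid ceramidase, the enzyme that follows acid sphingomyelinase, and lies on chromosome 8, positions 18055992 to 18084998, minus strand. Its level was 101, 97.6 and 105 CPM in control cells and 212, 213 and 214 CPM after fluoxetine treatment. The groups stood far apart, and the fluoxetine libraries were nearly equal. ASAH1 rose by 1.07 on the log2 scale (SE 0.07, adjusted p = 6.78e-06 in edgeR), an increase of 110.3% with a 95% interval of 1.90-fold to 2.33-fold, and it passed in each of the 14 alternative fits. An opposite-strand gene, AC124242.1, overlaps 1.63% of its exon bases and had only 5 to 14 counts per library. Whether the counting used strand is not given in the sources used here, so reads of overlapping genes on opposite strands cannot be told apart.

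Within a library, the reads of ASAH1 per read of SMPD1 do not depend on the scaling between libraries. This ratio was 3.65, 3.59 and 4.44 in control libraries and 6.19, 6.48 and 6.15 in fluoxetine libraries. The groups did not overlap. The log2 ratio of SMPD1 to ASAH1 changed by -0.69 (two-sided exact permutation p = 0.1, the smallest that 3 against 3 libraries allow, and 0.15 after adjustment over the 6 pairs compared). The ratio had moved toward the ceramidase transcript in each fluoxetine library, in a design that cannot give a p under 0.05.

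The hydrolases of galactose-bearing and sulfated lipids had the smallest fold changes of the 8 genes, and none of them passed. GALC removes galactose from galactosylceramide and is on chromosome 14, positions 87837820 to 87993665, minus strand. It had 949, 1030.0 and 1135 CPM in control and 1254, 1214 and 1272 CPM in fluoxetine libraries. No fluoxetine library was as low as any control library, but the log2 fold change of 0.26 (SE 0.08, 95% interval 0.09 to 0.44) narrowly missed the threshold, with an adjusted p of 0.0508 in edgeR. GALC passed in 6 of the 14 alternatives, among them limma-voom with an adjusted p of 0.0422, and without the third control library with 0.0124, and missed it in DESeq2 with 0.0553. A long non-coding gene, AL136501.1, overlaps 5.74% of the GALC exon bases on the opposite strand and has no row in the count table.

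GLA encodes alpha-galactosidase A, which acts on globotriaosylceramide, and is on chromosome X, positions 101397803 to 101407925, minus strand. Control libraries had 388, 364 and 349 CPM and fluoxetine libraries 388, 443 and 403 CPM. The highest control and the lowest fluoxetine library were almost level. The log2 fold change was 0.17 (SE 0.08, 95% interval -0.00 to 0.33, adjusted p = 0.183 in edgeR), and none of the 14 alternatives passed.

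ARSA encodes arylsulfatase A, which removes sulfate from sulfatide, and is on chromosome 22, positions 50622754 to 50628173, minus strand. It had 14.3, 15.2 and 7.64 CPM in control and 11.4, 15.4 and 10.4 CPM in fluoxetine libraries. The groups overlapped fully, with the third control library the lowest and the second fluoxetine library the highest. The log2 fold change was 0.01 (SE 0.24, 95% interval -0.53 to 0.55, adjusted p = 0.991 in edgeR). That interval is the widest of the 8 genes, and its sign changed with the scaling, as -0.016 with RLE normalization and -0.026 in DESeq2.

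HEXA encodes the alpha subunit of the hexosaminidase that cuts ganglioside GM2. The gene is on chromosome 15, positions 72340919 to 72376476, minus strand. It had 118 to 217 counts per library and the lowest level of the 8 genes per kilobase of transcript in both groups. Levels were 6.35, 6.15 and 6.30 CPM in control and 13.2, 10.6 and 10.8 CPM in fluoxetine libraries. The control libraries were nearly equal and all fluoxetine libraries were clearly higher, the first most of all. HEXA rose by 0.88 on the log2 scale (SE 0.13, 95% interval 0.58 to 1.17, adjusted p = 0.00263 in edgeR), and without each library in turn the change was 0.75 to 0.90. Of its principal transcript, 11.7% of bases are shared on the same strand with the protein-coding gene AC009690.1, which had at most 2 counts in any library. The opposite-strand genes AC009690.2 and HEXA-AS1 had at most 4 and 9 counts.

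GM2A encodes the GM2 activator, which presents the ganglioside to hexosaminidase, and is on chromosome 5, positions 151212150 to 151270440, plus strand. Its level was 67.4, 69.7 and 69.9 CPM in control and 123, 127 and 131 CPM in fluoxetine libraries. The replicates were tight and the groups well apart. GM2A rose by 0.88 on the log2 scale (SE 0.07, 95% interval 0.72 to 1.03, adjusted p = 3.56e-05 in edgeR) and passed in each of the 14 alternatives. The log2 ratio of HEXA to GM2A differed by -0.01 between the groups, which overlapped (exact permutation p = 1, two-sided).

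PSAP encodes prosaposin, the precursor of the saposins that activate several of these hydrolases, and is on chromosome 10, positions 71816298 to 71851375, minus strand. It had 687, 737 and 698 CPM in control and 917, 984 and 984 CPM in fluoxetine libraries. All fluoxetine libraries were above all control libraries. PSAP rose by 0.44 on the log2 scale (SE 0.07, 95% interval 0.29 to 0.59, adjusted p = 0.00268 in edgeR), with 0.39 to 0.46 over the 14 alternatives, each past the threshold. Relative to PSAP, which supplies their saposins, the log2 ratio fell by 0.18 for GALC and by 0.28 for GLA, each with groups that did not overlap and a two-sided exact permutation p of 0.1. The ARSA to PSAP ratio fell by 0.40 with overlapping groups (exact permutation p = 0.3).

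Levels of different genes were compared per kilobase of the principal transcript. In control cells GLA, GALC and PSAP led with 278, 267 and 246 CPM per kilobase, and their ranges over libraries overlapped. ASAH1 followed at 40.3, GM2A at 17.7, SMPD1 at 12.0, ARSA at 6.05 and HEXA at 1.19 CPM per kilobase, and from PSAP downward no neighbours overlapped. With fluoxetine the order of the leading genes was PSAP at 335, GALC at 321 and GLA at 312 CPM per kilobase, again overlapping. By this length, the lower 5 genes kept their places. They were at 84.7 for ASAH1, 32.6 for GM2A, 15.5 for SMPD1, 6.05 for ARSA and 2.20 CPM per kilobase for HEXA. The order depends on the length used, since ASAH1 has 2512 bases in its principal transcript and 15378 exon bases in all. Per kilobase of all exon bases, ASAH1 in control was at 6.58, under GM2A at 15.4 and SMPD1 at 9.52. With fluoxetine it was at 13.8, above SMPD1 at 12.3. PSAP led by that length in both groups, at 218 and 297. The summed level of the 8 genes was 2241, 2347 and 2394 CPM in control and 2952, 3039.9 and 3060 CPM in fluoxetine libraries, of which GALC made up 39.9% to 47.4%. The upregulated genes thus ranged from rare to very abundant transcripts.

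**Figure D3:**
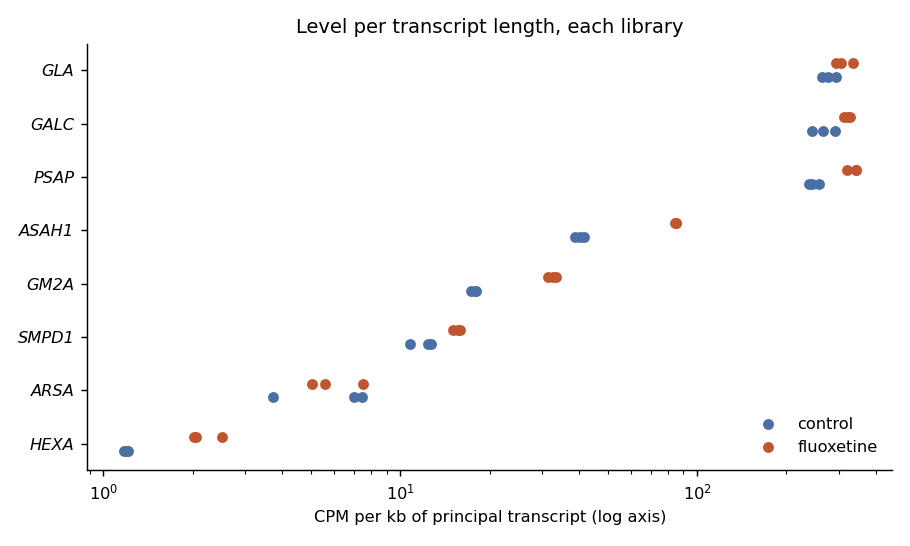
Level of the 8 genes per kilobase of their principal transcript in CPM per kilobase on a log axis, with a point for each library in control (blue) and fluoxetine (orange) cells. GLA, GALC and PSAP stand together at the top, and HEXA is at the bottom in both groups.

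The hydrolases work with other lysosomal proteins, and 25 such genes were listed as partners, covering glycosidases and protective proteins, cofactors, sorting receptors and lipid carriers. Of the 24 that could be tested, 14 rose and none fell, where 7.76% of all tested genes were called higher and 5.32% lower. At an unadjusted p under 0.05, 0 were lower in edgeR, DESeq2 and limma-voom. Their median log2 fold change was 0.42, and 22 were above 0, as were 8479 of the 15646 tested genes. SMPDL3B was too low to test. The list was drawn up with earlier results of these data known and gives no independent support. The count was 8 without the second control library and 7 without the first fluoxetine library.

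NEU1, the lysosomal sialidase that trims gangliosides, had 32.1, 29.8 and 27.6 CPM in control and 119, 135 and 123 CPM in fluoxetine libraries. The groups lay far apart. It rose by 2.07 on the log2 scale (SE 0.09, adjusted p = 6.59e-07 in edgeR), more than any of the 8 hydrolase and activator genes. CTSA, the protective protein that holds NEU1 in its active complex, rose by 0.93 (adjusted p = 0.000158), from 92.2 ± 10.9 to 176 ± 7.23 CPM (SD, n = 3 libraries, edgeR). NPC2, a carrier of cholesterol out of the lysosome, rose by 1.65, and GRN, the precursor of lysosomal granulins, by 1.14.

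Factors that bring hydrolases to the lysosome were also among the partners. M6PR, the cation-dependent mannose 6-phosphate receptor, rose by 0.46 (adjusted p = 0.00571 in edgeR), and missed the threshold without the first fluoxetine library, at 0.43 with an adjusted p of 0.0552 in edgeR. CLN8, which helps newly made lysosomal enzymes leave the endoplasmic reticulum, rose by 0.92. An opposite-strand gene, PHC1, overlaps 29.3% of the M6PR exon bases, with 89 to 205 counts per library. SUMF1, which makes the catalytic residue that ARSA and other sulfatases need, had 11.2 ± 0.435 CPM in control and 11.4 ± 0.300 CPM with fluoxetine (SD, n = 3). Its log2 fold change was 0.03 (adjusted p = 0.893 in edgeR), and its sign turned without the low-count filter and at equal depth. Neither SUMF1 nor its substrate ARSA passed in any alternative.

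The upstream sequences of SMPD1 and GM2A, of the partners NEU1 and CTSA, which rose, and of the partner SUMF1, which did not pass, are shown as examples of windows with and without the element described next. Lysosomal genes often carry an element with the core CACGTG, which factors of the TFEB family bind, and its full form, the CLEAR element, spans 10 bases. Windows of 250 bases before to 50 bases after the RefSeq start were searched on both strands in GRCh38.p14. Of 35116 windows, 7.26% held CACGTG, 2.40% GTCACGTG, 0.353% the full CLEAR element, 1.13% TCACNCCAC (a sterol-response type element) and 45.0% GGGCGG (a GC box), the first 3 being nested. SMPD1, GALC, GLA and GM2A had a window, and 0 of these 4 held CACGTG or TCACNCCAC while all 4 held GGGCGG. Of the 19 partner genes with a window (23 windows), 10 held CACGTG, 8 GTCACGTG and 2 the full CLEAR element. Each gene counted if any of its windows matched, whereas the shares of the 35116 are of single windows, so the figures are not like for like. Of the 10 partners with CACGTG, 4 passed as higher, and of the 8 tested partners whose windows lacked it, 7 did. Among those 10, CTSD (log2 fold change 0.77) and GNPTG (0.42) did not pass, although their groups did not overlap. The same held for PLA2G15 (0.33), whose window lacked CACGTG. Of the CTSD principal transcript, 61.4% of bases are shared on the same strand with AC068580.4, which had at most 10 counts in any library. SPNS1, also among the 10, averaged only 0.75 CPM in control and 0.74 CPM in fluoxetine libraries. A match describes letters only, and variants of these letters were not searched. Whether the element bears on the changes was not tested. The 250 bases upstream of the start are printed 5′ to 3′ on the strand of the gene, from chr11:6390224-6390473 (plus) for SMPD1, chr5:151252935-151253184 (plus) for GM2A, chr6:31862822-31863071 (minus) for NEU1, chr20:45891085-45891334 (plus) for CTSA and chr3:4467270-4467519 (minus) for SUMF1. Capitals mark GGGCGG or its complement in SMPD1 and GM2A, and CACGTG or GTCACGTG and its complement in NEU1, CTSA and SUMF1.
SMPD1: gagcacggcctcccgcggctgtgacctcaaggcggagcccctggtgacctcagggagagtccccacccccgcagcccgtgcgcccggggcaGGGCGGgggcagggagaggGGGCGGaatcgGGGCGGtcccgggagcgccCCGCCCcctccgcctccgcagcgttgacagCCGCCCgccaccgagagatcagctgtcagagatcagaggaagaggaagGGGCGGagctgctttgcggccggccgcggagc
GM2A: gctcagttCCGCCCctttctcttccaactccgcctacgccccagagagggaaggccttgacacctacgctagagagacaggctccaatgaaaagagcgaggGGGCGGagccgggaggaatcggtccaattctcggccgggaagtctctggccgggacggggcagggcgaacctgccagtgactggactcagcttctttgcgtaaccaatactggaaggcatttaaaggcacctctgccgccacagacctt
NEU1: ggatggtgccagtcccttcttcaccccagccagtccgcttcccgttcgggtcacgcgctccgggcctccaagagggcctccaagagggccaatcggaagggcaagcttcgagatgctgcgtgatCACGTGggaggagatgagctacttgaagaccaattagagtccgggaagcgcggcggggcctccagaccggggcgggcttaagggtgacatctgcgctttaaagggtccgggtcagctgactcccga
CTSA: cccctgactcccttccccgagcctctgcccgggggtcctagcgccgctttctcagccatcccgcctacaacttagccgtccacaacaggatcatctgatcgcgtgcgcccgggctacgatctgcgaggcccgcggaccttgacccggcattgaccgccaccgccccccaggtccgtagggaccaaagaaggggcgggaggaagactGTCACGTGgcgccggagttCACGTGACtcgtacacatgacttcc
SUMF1: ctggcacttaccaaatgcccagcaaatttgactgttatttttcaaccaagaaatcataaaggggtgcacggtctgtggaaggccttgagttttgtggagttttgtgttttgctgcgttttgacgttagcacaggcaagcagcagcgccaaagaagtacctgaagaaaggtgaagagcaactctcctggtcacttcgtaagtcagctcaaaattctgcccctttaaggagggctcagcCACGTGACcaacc

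SMPD1 carried 6 GC boxes in this stretch and GM2A carried 2. NEU1 carried CACGTG 126 bases before the start, and CTSA carried GTCACGTG or its complement 44 and 25 bases before it. SUMF1 carried the complement of GTCACGTG 13 bases before its start.

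Enzymes that act on the same lipids outside the lysosome were listed as well. Of 17 genes listed for neutral and alkaline sphingomyelinases, ceramidases and sphingosine 1-phosphate metabolism, 14 could be tested, and 0 passed at an adjusted p under 0.05 in edgeR, DESeq2 or limma-voom. Over all tested genes, 13.1% passed in edgeR. The median log2 fold change of the 14 was -0.05. In 3 of them each fluoxetine library lay above each control library, and in 1 below. These compare with 17.5% and 14.4% of all tested genes. At an unadjusted p under 0.05 in edgeR, SGPP1 (0.26) and ALDH3A2 (0.15) were higher and SMPD4 (-0.22) was lower. SMPD4, a neutral sphingomyelinase, had 156, 177 and 148 CPM in control and 141, 137 and 134 CPM in fluoxetine libraries, so the groups did not overlap, but its adjusted p was 0.0972 in edgeR, and 0.0141 was the lowest over its alternatives, of which 3 passed. The neutral ceramidase ASAH2 had a log2 fold change of -0.21 and the related gene ASAH2B of -0.14 (adjusted p = 0.399 and 0.464 in edgeR). Their principal transcripts have 20 and 6 exons, and reads of any shared sequence may be split between them. For the sphingosine kinases, the log2 fold change was 0.22 for SPHK1 and 0.35 for SPHK2, and for the sphingosine 1-phosphate lyase SGPL1 it was 0.15, with adjusted p from 0.301 to 0.504. The difference from the lysosomal genes was not tested.

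Of the 12 genes listed for making the substrates of the hydrolases from ceramide or for moving ceramide, 11 could be tested, 3 rose and none fell, and at an unadjusted p under 0.05 in edgeR 6 were higher and 1 was lower. DESeq2 and limma-voom also called 3 higher and 0 lower. Over all tested genes, edgeR called 7.76% higher and 5.32% lower. UGCG, which makes glucosylceramide, had 53.9, 53.5 and 58.8 CPM in control and 102, 110.1 and 103 CPM in fluoxetine libraries. The groups were well separated, and it rose by 0.92 on the log2 scale (SE 0.08, adjusted p = 5.84e-05 in edgeR). CERT1, the carrier of ceramide from the endoplasmic reticulum to the Golgi, rose by 0.86 from 25.7 ± 1.94 to 46.7 ± 1.83 CPM (SD, n = 3 libraries, adjusted p = 0.000339 in edgeR). Of the CERT1 exon bases, 96.2% are free of other genes on either strand. B4GALT6, which makes lactosylceramide, rose by 0.40 (adjusted p = 0.0293 in edgeR), but missed the threshold without the first or second control library and without the first or the third fluoxetine library, at 0.31 or more with an adjusted p of up to 0.195. B4GALT5, ST3GAL5, SGMS1, CERK and B4GALNT1 did not pass, with log2 fold changes of 0.28, 0.65, 0.22, -0.13 and -0.22.

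**Figure D4:**
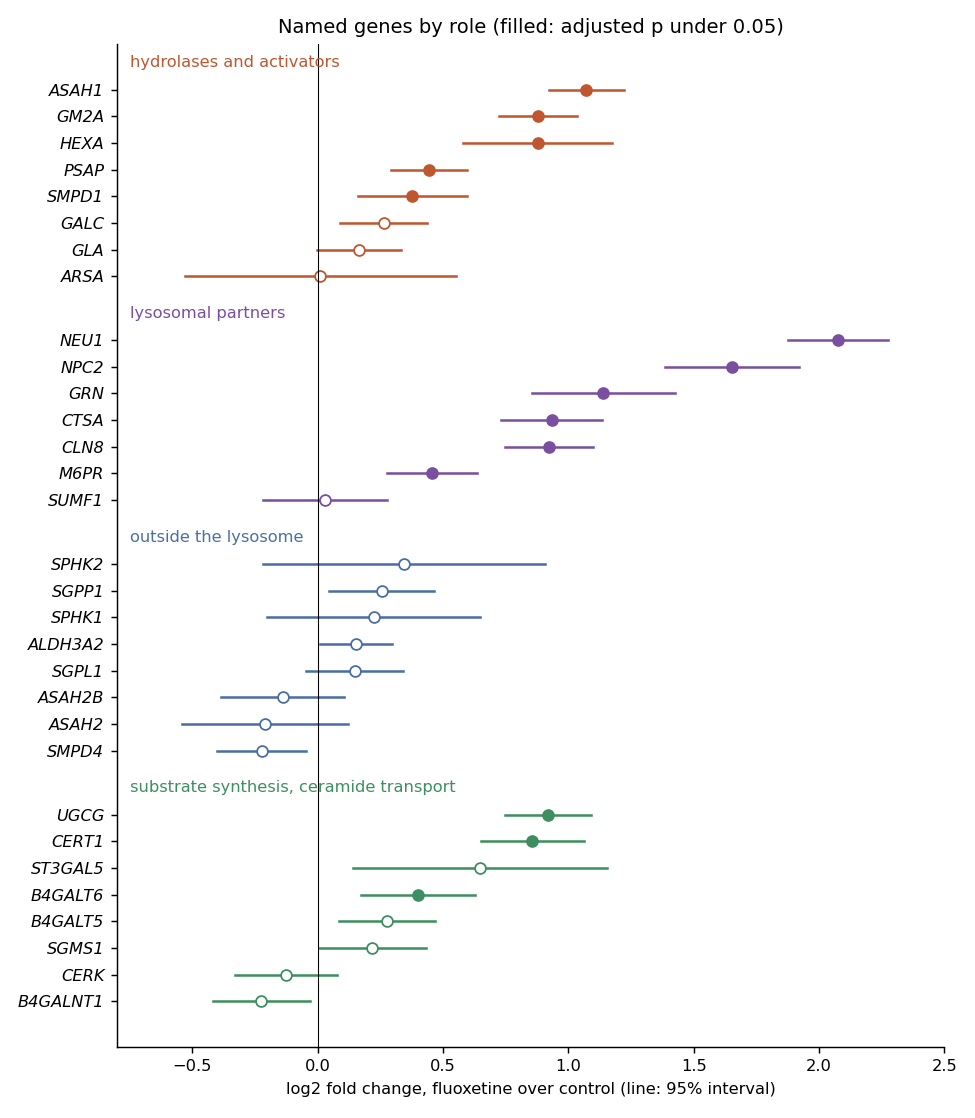
Log2 fold change of fluoxetine over control with its 95% interval for the named genes, grouped by role, with filled points for an adjusted p under 0.05 by edgeR's quasi-likelihood test. Filled points are frequent among the hydrolases, activators and lysosomal partners and absent from the enzymes outside the lysosome.

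**Figure D5:**
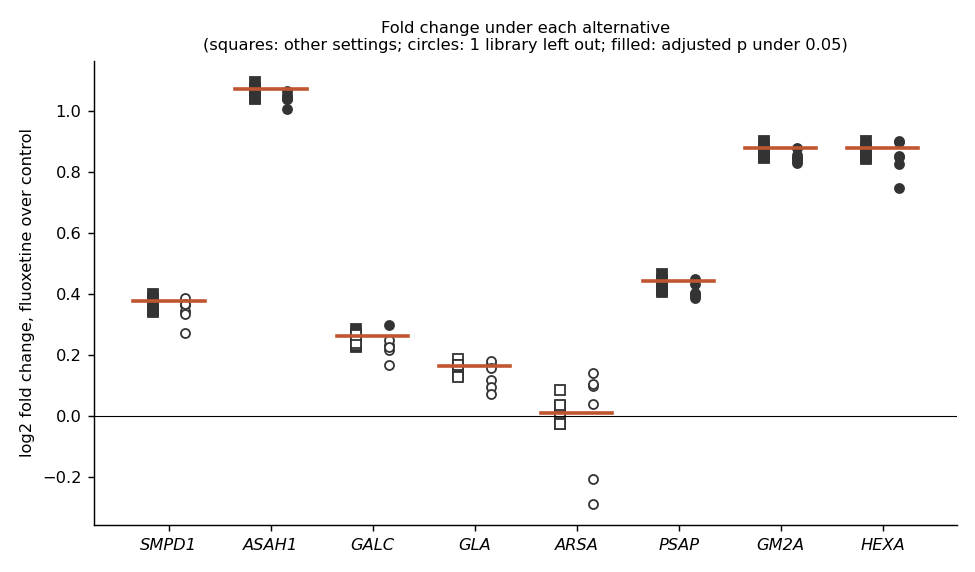
Log2 fold change of the 8 genes in the reported fit (lines) and in each of the 14 alternatives (squares for other settings, circles for fits without 1 library), filled where the adjusted p was under 0.05. ASAH1, GM2A, HEXA and PSAP stay filled throughout, SMPD1 is open wherever a library was left out, and ARSA lies on both sides of 0.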

How the data were processed

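RNA-seq was analysed in 3 control and 3 fluoxetine libraries of H460 cells, grouped by the deposited sample labels. The authors deposited 1 table of raw read counts for 31762 genes, without normalization or pooling. Its further columns hold a log2 fold change with raw and adjusted p-values from the authors' test of the groups, and they were not used. The submitters' processing notes name fastp 0.20.0, HISAT2 2.1.0, HTSeq 0.10.0 and DESeq2 1.18.1. The genome build, annotation and strand setting are not given in the sources used here, but 96.8% of the 31635 genes shared with GENCODE 29 (GRCh38) had the same position, and lengths, overlaps and principal transcripts come from that release.

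Differential expression was tested on the counts with edgeR 4.0.16 under R 4.3.3 (quasi-likelihood test, TMM, filterByExpr, no covariate, Benjamini-Hochberg adjustment over 15646 genes). A gene passed at an adjusted p under 0.05 at any fold. SEs are the log2 fold change divided by the square root of F. Ratios of raw counts were compared by an exact permutation test. Alternatives were DESeq2 1.42.0, limma-voom (limma 3.58.1), RLE normalization, library size alone, no filter, at least 10 counts in every library, a replicate block, thinning to 16157507 counts, and leaving out each library.

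The members and lists were chosen with earlier results of these data known. The genes named are the 8 members, up to 8 of each list by smallest p, SUMF1, genes overlapping a member, and the 5 genes most like SMPD1. Values of a few genes within this rule are not reported here. Other overlapping genes, SMPDL3B, CTSD, GNPTG, SPNS1 and PLA2G15 were named after their values were seen. Markers of lung lineage (NKX2-1 at most 9 counts, SFTPC at most 3) were also read. On simulated counts for this comparison, 157 of 200 planted changes among 15429 genes were recovered with 6 false calls. All planted changes were larger than those of SMPD1, PSAP, GALC, GLA and ARSA, so the recovery does not cover changes of that size. Depth was 16157507 to 27823667 counts per library, and libraries of a group differed by more than sampling noise, so none was merged.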

Additional observations from a re-analysis of the deposited data

How the results depend on the processing

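Over all tested genes, 1214 were higher and 833 lower (59.3% of the calls higher), against 1106 and 1140 in DESeq2 (49.2%). The total of 2047 ranged from 572 without the first fluoxetine library to 3633 without the third control library, with 935 without the third fluoxetine library, 919 without the second control library and 1191 without the first. Of the 8 genes, 4 or 5 passed without each library, and SMPD1 (log2 fold change 0.27 to 0.39) was the call lost in every such fit. The count of 5 came without the third control library, where GALC passed (adjusted p = 0.0124 in edgeR) and SMPD1 did not (0.0553). Leaving out a library gave 7 to 15 partners, 0 to 2 genes acting outside the lysosome and 2 to 6 genes of substrate synthesis (6 without the third control library). Without the low-count filter 1 gene outside the lysosome passed. The ARSA log2 fold change reversed to -0.026 in DESeq2, -0.016 with RLE normalization, -0.024 without the filter, and lay between -0.29 and 0.14 without each library (-0.29 without the third control library, -0.21 without the second fluoxetine library). That of SUMF1 reversed to -0.0053 without the filter, -0.028 at equal depth, and lay between -0.023 and 0.025 without each library. The HEXA to GM2A log2 ratio ranged from -0.13 to 0.061 without each library. The causes were not tested.

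The replicate numbers were not shown to pair the libraries, since deviations of same-numbered libraries correlated at 0.03, 0.12 and 0.39, and the first control library correlated best with the second fluoxetine library (0.32). With the replicate block the pairing gave 4018 calls over all genes, 2 outside the lysosome and 6 in synthesis, and GALC passed (adjusted p = 0.0108 in edgeR). HEXA, at 118 to 217 counts, and ARSA had the least precise values of the 8 genes.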

Other observations

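The 5 tested genes whose log2 CPM followed SMPD1 most closely over the 6 libraries were FAM83G, OPA3, FAM45BP, DUSP4 and PORCN, with Pearson r of 0.992 to 0.993. The libraries share groups and depth differences, and 573 of 15645 tested genes had r above 0.9, so the likeness is a description only. Their own log2 fold changes were 0.34, 0.21, 1.03, 0.32 and 0.43 in that order.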
